A study of Mus musculus with 18 samples.

Results

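The genes described here are 38 named regulators and machine parts of the G2 phase and mitosis, taken by gene symbol from the 24514 genes of a deposited table of read counts. All 38 passed the filter on low counts, which left 13802 genes for testing. Their mean level ran from 26.4 CPM (counts scaled to the size of each library) for Cdc25c to 731 CPM for Top2a. The cells were the mouse embryonic fibroblast line iMGT-Myh6-eGFP, which carries Mef2c, Gata4 and Tbx5 behind a doxycycline switch and a green reporter driven by the heart gene Myh6. They were transfected with a control siRNA (siControl) or an siRNA against Chst7 (siChst7) and given doxycycline at 1 µg/mL from day 0. Day 0 samples had no doxycycline, and the other samples were taken at days 1 and 3. The 6 groups had 3 samples each, named biological replicates in the labels, and each sample pooled 40 wells of this 1 line. No group was followed over days 1 and 3 without doxycycline, so that time in culture, time since transfection and the 3 factors cannot be told apart.

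Cells enter mitosis when Cdk1, bound to cyclins A and B, is activated by CDC25 phosphatases. Most of these genes are transcribed late in the cell cycle, under the MuvB complex with B-Myb (Mybl2) and Foxm1, and are held down in resting cells by the DREAM complex. Both complexes reach many of their promoters through the cell cycle genes homology region (CHR), a short element that often lies downstream of CCAAT boxes. Fibroblasts turned towards heart muscle cells are known to leave the cell cycle.

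Since the members share this mode of control, their promoters were searched for the letters of the CHR, TTTGAA and its variant form TTCGAA, and of the CCAAT box, on both strands, from 250 bases before to 50 bases after the RefSeq gene start (GRCm38.p6). A window was at hand for 31 of the 38 members. The CHR letters were in 23 of these 31 genes (74.2%), against 19.5% of the 17545 genes of the counts table with a window. CCAAT was in 22 of them (71%, against 42%), and both were in 20 (64.5%, against 9.04%). Matches of the 2 motifs were allowed to overlap, and a match is a description of the letters, not of a bound site. The stretches below, each 60 bases long, 5′ to 3′ on the gene's strand and wholly before the gene start, show the 2 motifs in members whose levels are described further on. Capitals mark both motifs, where ATTGG is a CCAAT box and TTCAAA a CHR on the other strand.
Cdk1 (chr10:69352918-69352977, minus strand): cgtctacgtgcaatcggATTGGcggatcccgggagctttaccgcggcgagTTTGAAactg
Cdc20 (chr4:118437352-118437411, minus strand): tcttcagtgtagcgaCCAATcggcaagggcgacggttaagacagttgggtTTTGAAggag
Ube2c (chr2:164769850-164769909, plus strand): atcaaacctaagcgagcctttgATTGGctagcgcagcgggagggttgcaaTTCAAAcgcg
Prc1 (chr7:80294396-80294455, plus strand): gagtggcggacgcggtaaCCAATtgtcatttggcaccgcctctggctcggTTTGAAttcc
Kif11 (chr19:37376313-37376372, plus strand): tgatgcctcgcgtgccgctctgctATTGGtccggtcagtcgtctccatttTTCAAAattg
Top2a (chr11:99024203-99024262, minus strand): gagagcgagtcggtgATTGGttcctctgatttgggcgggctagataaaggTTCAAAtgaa
Mki67 (chr7:135716486-135716545, minus strand): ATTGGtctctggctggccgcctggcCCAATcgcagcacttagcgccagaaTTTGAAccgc
In these stretches the first base of the CHR lies between -30 (Prc1, counted from the downstream one of its 2 starts) and -15 (Cdk1) from the gene start, except for Mki67 (-116), and a CCAAT box lies before it. The stretches were picked to hold both motifs before the start, so this layout does not describe all members. In Cdc25b, Plk1, Aurka, Cdca8, Bub1, Ttk, Cenpa, Cenpf, Ndc80, Hmmr, Kif23 and Anln the CHR letters lie only after the gene start. In Ccnb2, Bub1b, Kif2c and Ect2 the window holds no CCAAT box ahead of the CHR letters that lie before the start. The letters of the CHR were not in the windows of Mybl2, Ccnb1, Birc5, Mad2l1, Pttg1, Cenpe, Nuf2 and Nusap1, and Ccnb1 and Cenpe alone of these held CCAAT. No window was at hand for Foxm1, Ccna2, Cdc25c, Aurkb, Incenp, Tpx2 and Kif20a.

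Total counts ran from 30590742 to 50021142 per library. Chst7, the target of the siRNA, stood at 19.7, 18.6 and 19.2 CPM in siControl at day 0, at 40.4, 37.2 and 35.3 at day 1 and at 25.6, 23.8 and 25.9 at day 3. In siChst7 it stood at 0.238, 0.611 and 0.465, at 0.95, 0.581 and 0.733, and at 2.96, 1.87 and 1.64 CPM. The summed level of 9 fibroblast markers lay between 9560 and 15000 CPM in every library. Vim, at a mean of 5790 CPM, made up much of this sum and rose from day 0 to day 1 in siControl (log2 fold change 1.25). Of the 8 fibroblast markers tested, 2 were called higher and 6 lower on that step, against 29.5% and 30.8% of all tested genes. The summed level of 8 cardiomyocyte markers at day 3 was 823 to 884 CPM in siControl and 991 to 1250 CPM in siChst7. Macrophage markers summed to at most 30 CPM, endothelial markers to 4.07 and epithelial markers to 2.72. The 3 siChst7 libraries of day 3 differed from each other far more than the replicates of other groups did. The chi-square of their counts per degree of freedom was 22.6 to 59.2, against 2.96 to 5.48 for the other pairs, except for the siChst7 day 0 replicate 3, whose pairs gave 15.2 and 15.6. Rn45s, a ribosomal RNA precursor, took 1.96% of the counts of the siChst7 day 3 replicate 1 and 0.131% to 0.654% elsewhere. The main counts of genes called between the arms at day 3 are given with and without the siChst7 libraries of that day. All groups share the same estimate of spread in the fit. Standard errors and p-values of comparisons that use the siChst7 day 3 libraries can therefore understate the spread among these libraries. For Cdk1 the standard deviation at day 3 was 56.9 CPM in siChst7 and 3.18 CPM in siControl.

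In siControl cells the mitosis genes fell on both steps of the time course. Summed over the 38 members, the level was 8640 ± 89.2 CPM at day 0, 6760 ± 17.4 at day 1 and 4620 ± 44.3 at day 3 (mean ± SD, n = 3 libraries). From day 0 to day 1, 33 of the 38 members were lower and 2 were higher at an adjusted p below 0.05 (edgeR quasi-likelihood F-test), where 30.8% of all tested genes were lower and 29.5% higher. From day 1 to day 3, 36 members were lower and 0 higher (0 at an unadjusted p below 0.05, and 0 by DESeq2), where 32.3% of all tested genes were lower and 22.8% higher. The median log2 fold change (log2FC) of the members was -0.35 on the first step and -0.54 on the second, and that of all tested genes on the second -0.05. The libraries of the days compared did not overlap for 36 and for all 38 members, where this held for 69.1% and 65.6% of all tested genes. With library totals in place of TMM scaling, which moved the median of all tested genes on the second step to 0.10, 65% of the called genes were higher on that step in place of 41.4%, and 32 members were lower and 0 higher. At day 3 the members stood between 30.1% (Cdc25b) and 91.6% (Mad2l1) of their own siControl day 0 mean, with a median of 55.6%. In these pooled samples, fewer dividing cells and less of these RNAs per cell cannot be told apart. The 2 steps share the day 1 libraries.

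**Figure D1:**
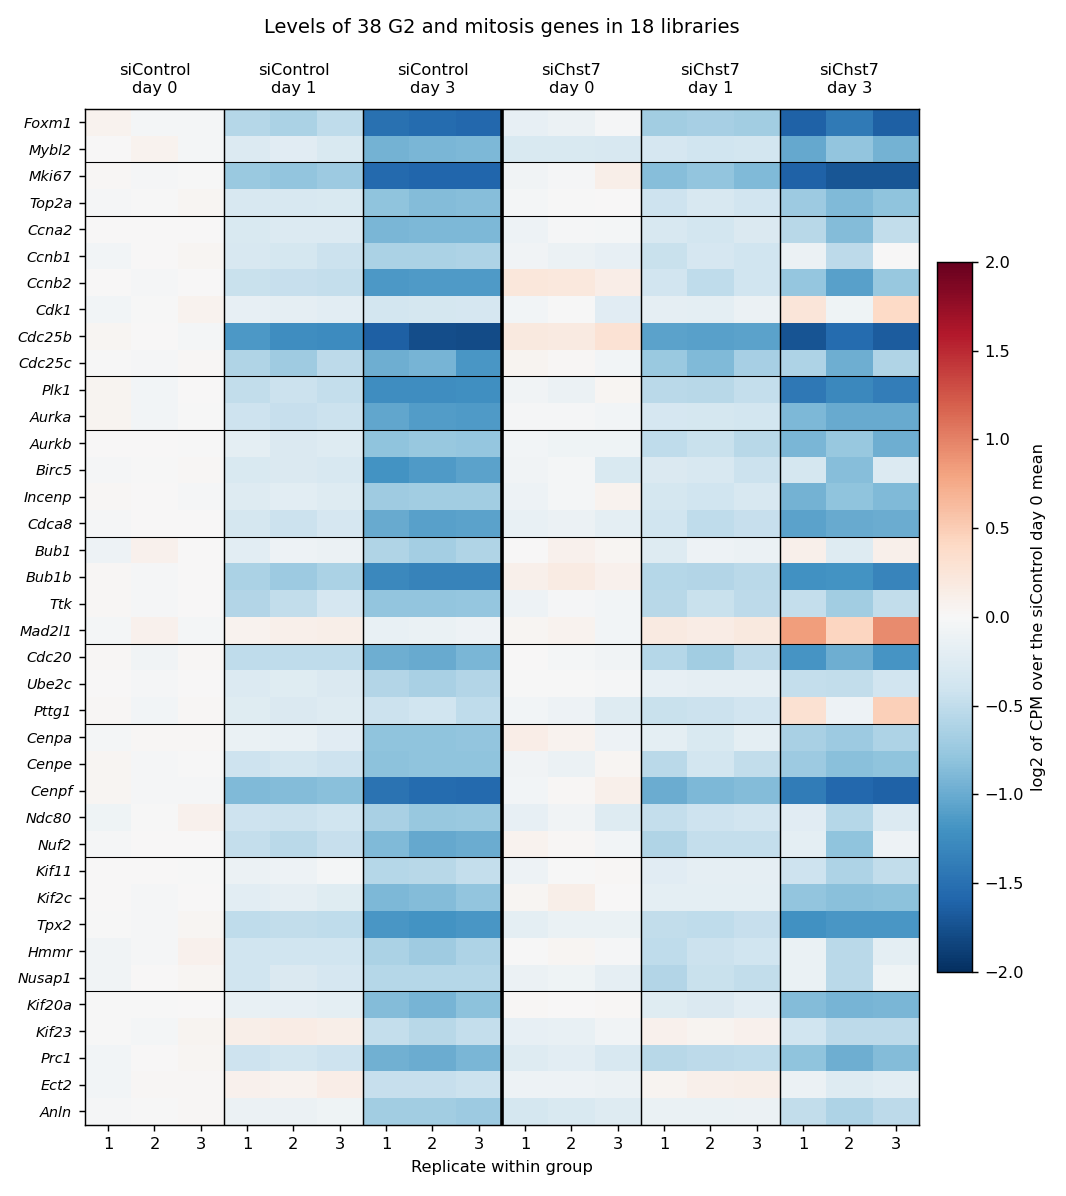
Level of each of the 38 members (rows, grouped by role with thin lines) in each of the 18 libraries (columns, replicate number below), as the log2 of CPM over the siControl day 0 mean, with blue lower and red higher. Blue deepens from day 0 to day 3 in siControl for nearly every row, while at day 3 in siChst7 Mad2l1 is red in all 3 libraries and Pttg1 and Cdk1 in replicates 1 and 3.

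The transcription factors were among the members that fell. Foxm1, an activator of late cell cycle genes, stood at 224, 207 and 208 CPM in siControl at day 0, at 144, 138 and 149 at day 1 and at 75.5, 73.3 and 72 at day 3. No library of a later day reached one of an earlier day. Its log2FC was -0.57 ± 0.05 (SE) on the first step and -0.97 ± 0.05 on the second (edgeR adjusted p = 4.4e-09 and 2.1e-12), the latter the lowest of all members. Mybl2, the B-Myb subunit that turns MuvB into an activator, fell by 0.27 and then by 0.65 on the log2 scale. Foxm1 in siChst7 stood at 190, 196 and 210, then 132, 135 and 131, then 69.3, 80.3 and 68.7 CPM, overlapping siControl at days 0 and 3. At day 3 its siChst7 against siControl log2FC was -0.01 ± 0.06 (adjusted p = 0.87).

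Of the proliferation marker and the topoisomerase, Mki67, the Ki-67 protein that coats mitotic chromosomes, stood at 828, 806 and 813 CPM in siControl at day 0, at 490, 474 and 493 at day 1 and at 277, 271 and 273 at day 3. In siChst7 it stood at 777, 800 and 886, then at 454, 472 and 444, then at 265, 249 and 248 CPM. Every day 3 library of siChst7 lay below every one of siControl, but the log2FC of -0.11 ± 0.04 did not pass (edgeR adjusted p = 0.053). Top2a, which untangles sister chromatids, had the highest level of all members per length at siControl day 0 (179 CPM per kilobase, with Ube2c at 178). It stood at 919, 929 and 955 CPM in siControl at day 0 and at 534, 511 and 519 at day 3. In siChst7 it stood at 909, 928 and 939 CPM at day 0 and at 562, 509 and 537 at day 3, overlapping siControl at both days. Both genes fell on both steps in both siRNA arms.

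All 6 of the cyclins, Cdk1 and the CDC25 phosphatases fell from day 0 to day 1 in siControl, and 5 of the 6 fell from day 1 to day 3. Cdc25b, a phosphatase that activates Cdk1 at the entry to mitosis, had the lowest log2FC of all members on the first step (-1.21 ± 0.05, edgeR adjusted p = 5.7e-15). It stood at 137, 134 and 130 CPM in siControl at day 0, at 60.3, 56.8 and 56.2 at day 1 and at 43.2, 39.1 and 38.6 at day 3, with no overlap between days. Cdk1, the kinase that drives mitosis, had the smallest log2FC in size among these genes on both steps in siControl. It stood at 294, 303 and 320 CPM at day 0, at 272, 269 and 265 at day 1 and at 236, 239 and 242 at day 3. Its log2FC was -0.19 ± 0.08 on the first step (adjusted p = 0.041) and -0.17 ± 0.08 on the second (adjusted p = 0.066). The call on the first step was lost when any one of 5 of the 6 libraries compared was left out.

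Further down the pathway the falls in siControl were of like direction and of unequal size. On the first step Cenpf, a kinetochore protein of the outer layer, had a log2FC of -0.86 and Bub1b, which holds back the anaphase-promoting complex until chromosomes are attached, one of -0.66. On the second step the lowest values after Foxm1 were those of Mki67 (-0.83), Birc5 (-0.83), the survivin subunit of the chromosomal passenger complex, and Plk1 (-0.76), the Polo kinase of mitotic entry. Tpx2, a spindle assembly factor that activates Aurora A, stood at 531, 527 and 550 CPM at day 0, at 377, 382 and 378 at day 1 and at 239, 234 and 238 at day 3. Ube2c, the ubiquitin-conjugating enzyme of the anaphase-promoting complex, stood at 166, 164 and 167, then 137, 141 and 136, then 111, 106 and 110 CPM.

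Against the other members, 2 of the 5 central spindle and cytokinesis genes were higher on the first step. Kif23, the motor of the centralspindlin complex, stood at 220, 215 and 229 CPM in siControl at day 0, at 241, 244 and 241 at day 1 and at 158, 151 and 159 at day 3. Its day 1 libraries lay above all other siControl libraries (log2FC 0.13 ± 0.04 against day 0, edgeR adjusted p = 0.0091), a call that was lost without the siControl day 0 replicate 2. Ect2, the exchange factor that activates RhoA at the furrow, had a log2FC of 0.10 ± 0.04 on this step (adjusted p = 0.043), which was lost when any one of 5 of the 6 libraries was left out. Both fell from day 1 to day 3 (-0.63 and -0.55). Of this group's other members, Kif20a, Prc1 and Anln fell on the first step, Anln by 0.11 on the log2 scale, a call lost without the day 0 replicate 3 or the day 1 replicate 1 or 2. Mad2l1, Bub1 and Kif11 were the 3 members not called on it.

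**Figure D2:**
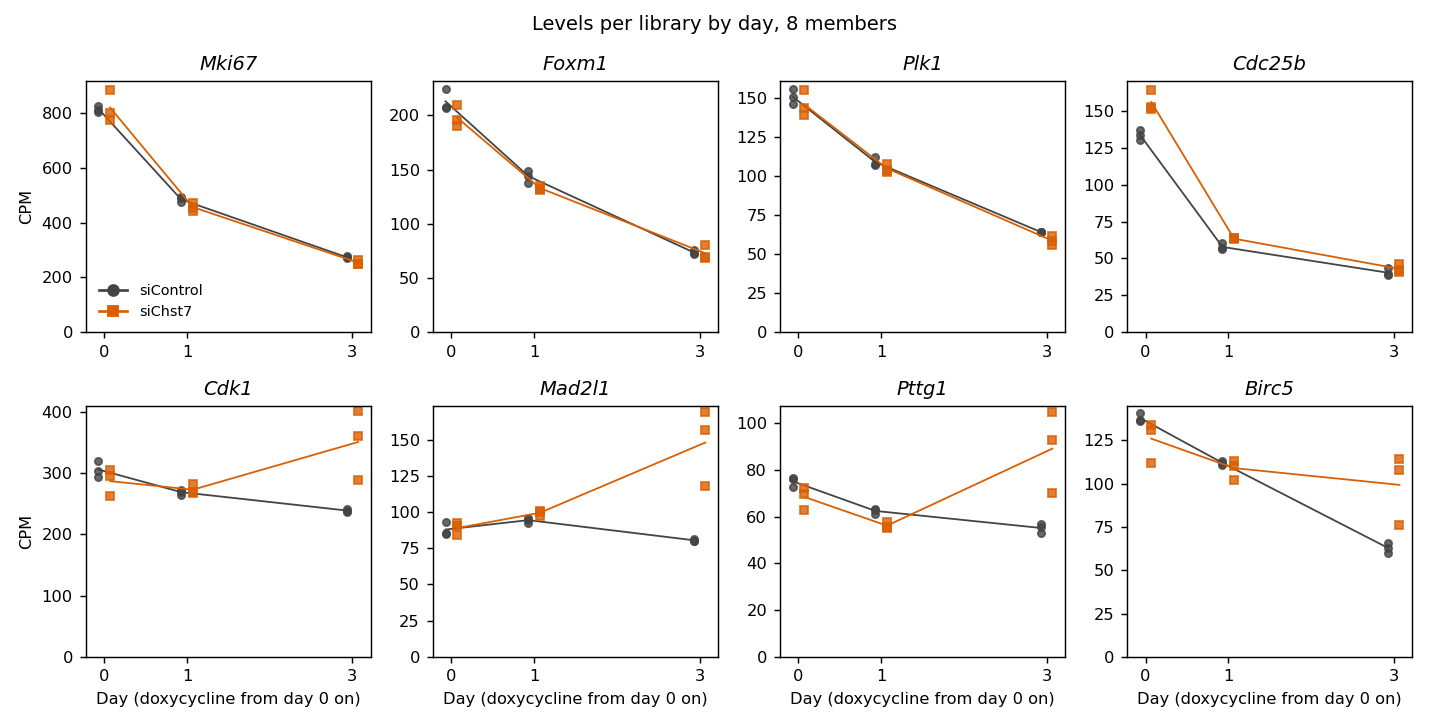
CPM of 8 members (vertical axis, from 0) against the day (horizontal axis), with 1 point per library, circles and grey for siControl, squares and orange for siChst7, and lines through the group means. Mki67, Foxm1, Plk1 and Cdc25b (upper row) run close together in both arms, while Cdk1, Mad2l1 and Pttg1 (lower row) rise in siChst7 from day 1 to day 3 and Birc5 lies above siControl at day 3, with the siChst7 replicate 2 lowest in each of the lower panels at day 3.

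Before doxycycline, the share of members that differed between siChst7 and siControl cells was near that of all tested genes. At day 0, 3 members were higher and 6 lower (13.9% and 13.5% of all tested genes), with a median log2FC of -0.04 against 0.01 for all tested genes. The groups did not overlap for 16 of the 38 members, where this held for 43.5% of all tested genes. The lower members included Mybl2 (-0.32 ± 0.05, edgeR adjusted p = 3.1e-05), Anln (-0.31), Prc1 (-0.27) and Tpx2 (-0.15). Anln, the anillin scaffold of the contractile ring, stood at 595, 619 and 634 CPM in siChst7 and at 753, 759 and 775 in siControl. Prc1, which bundles the microtubules of the central spindle, stood at 303, 313 and 292 CPM in siChst7 and at 352, 366 and 374 in siControl. The 3 higher members were Cdc25b (0.22), Ccnb2 (0.19), a B-type cyclin, and Bub1b (0.12). The number of higher members fell to 1 when the siControl replicate 2 or the siChst7 replicate 1 or 2 of day 0 was left out, and Cdc25b alone of the 3 was called higher under every alternative. With library totals in place of TMM scaling, 69.4% of the called genes were higher in place of 50.6%, and 4 members were higher and 3 lower. The siChst7 day 3 replicate 2, which is not part of this comparison but shares its estimate of spread, also bore on it: without that library 13 members were lower. The share of all tested genes called without that library is not given here. The call of Kif23 (-0.13) was lost without the siControl replicate 1 or 3 or the siChst7 replicate 1 or 2 of day 0.

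At day 1, 0 members were higher and 2 lower, where 8.86% of all tested genes were higher and 8.72% lower. At an unadjusted p below 0.05 it was 3 higher and 7 lower, and DESeq2 called 0 and 2. The median log2FC was -0.05, and the groups did not overlap for 18 members (39.4% of all tested genes). Aurkb, the kinase of the chromosomal passenger complex, stood at 88.2, 91.6 and 85 CPM in siChst7 and at 109, 102 and 104 in siControl (log2FC -0.25 ± 0.05, edgeR adjusted p = 0.00065). Prc1 was lower by less (-0.13 ± 0.04, adjusted p = 0.035), and its call was lost when any one of the 6 libraries was left out. Without the siChst7 day 3 replicate 2, 7 members were lower and 1 higher, and in a fit of the 6 day 1 libraries alone 10 were lower and 2 higher. These fits change the estimate of spread for all genes, and their shares of all tested genes called are not given here.

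At day 3 most of the members that differed were higher in siChst7. Of the 38 members, 19 were higher in siChst7 and 3 lower, where 23.1% of all tested genes were higher and 21.6% lower. The median log2FC was 0.11, against 0.01 for all tested genes, and the values ran from -0.18 (Incenp) to 0.88 (Mad2l1). The sum over the members was 5380, 4820 and 5380 CPM in siChst7 and 4650, 4570 and 4640 in siControl. The groups did not overlap for 21 members (49.1% of all tested genes). In 18 of these every siChst7 library was the higher one, and in Mki67, Plk1 and Incenp every siChst7 library was the lower one. In all 19 members called higher, replicate 2 was the lowest of the 3 siChst7 libraries. The number called higher was 16 without the siChst7 replicate 1, 20 without replicate 2 and 13 without replicate 3. The number called lower was 1 without the siControl replicate 1 or 3. The number called higher was 17 without both the siChst7 day 3 replicate 1 and the siChst7 day 0 replicate 3.

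**Figure D3:**
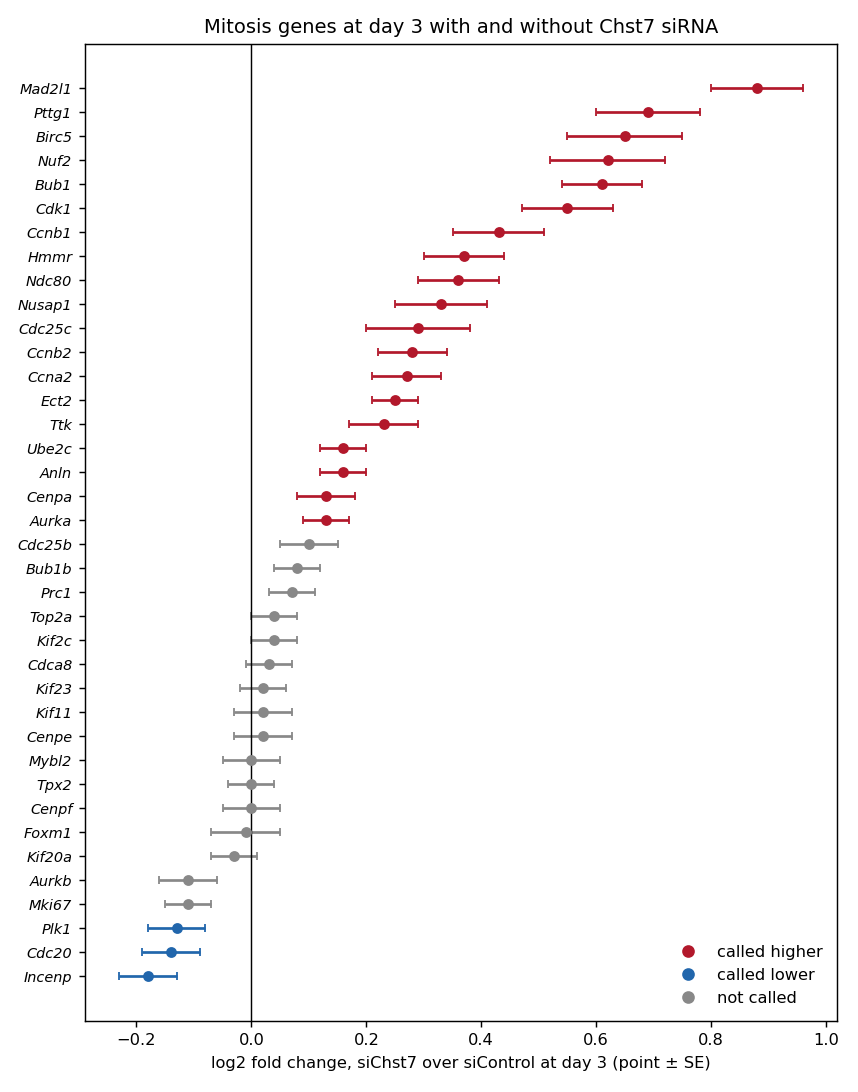
Log2FC of siChst7 over siControl at day 3 for each member (rows, ordered by value), with bars of 1 SE, red for members called higher, blue for members called lower and grey for members not called. The 19 red points run from 0.13 to 0.88, and the 3 blue points from -0.18 to -0.13.

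Among the cyclins, Cdk1 and the CDC25 phosphatases, 5 of 6 were higher in siChst7 at day 3. Cdk1 stood at 361, 289 and 402 CPM in siChst7 and at 236, 239 and 242 in siControl, a log2FC of 0.55 ± 0.08 (edgeR adjusted p = 6.8e-06). Every siChst7 library lay above every siControl library. Ccnb1, the cyclin B that carries Cdk1 into mitosis, stood at 180, 136 and 198 CPM against 126, 127 and 128 (0.43 ± 0.08, adjusted p = 0.00018). Ccna2, cyclin A, and Ccnb2 had log2FC of 0.27 and 0.28. Cdc25c was higher by 0.29, with replicate 2 (18.5 CPM) inside the siControl range of 16.3 to 19.1. Its call was lost without the siControl replicate 3 or the siChst7 replicate 1 or 3. Cdc25b was not called (0.10 ± 0.05, adjusted p = 0.17).

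The kinases and the passenger complex were split. Plk1 stood at 55.9, 61.5 and 58.2 CPM in siChst7 and at 64, 64 and 64.5 in siControl (log2FC -0.13 ± 0.05, edgeR adjusted p = 0.028). Aurka, the Aurora A kinase of centrosomes, stood at 79.6, 73.5 and 73.6 CPM against 71.8, 68.4 and 67.5 (0.13 ± 0.04, adjusted p = 0.018). Of the passenger complex, Birc5 stood at 108, 76.1 and 114 CPM against 60.2, 62.9 and 65.6 (0.65 ± 0.10, adjusted p = 1.5e-05). Its scaffold Incenp stood at 87.7, 96.5 and 90.7 CPM against 103, 104 and 104 (-0.18 ± 0.05, adjusted p = 0.0032). Thus 1 subunit was higher and 1 lower, and Aurkb and Cdca8, the kinase and borealin subunits, were not called (-0.11 and 0.03). The call of Plk1 was lost without any one siControl replicate of day 3 or without the siChst7 replicate 1. That of Aurka was lost without the siControl replicate 2 or 3 or the siChst7 replicate 1 or 3, and with each other scaling tried.

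The spindle assembly checkpoint, which delays anaphase until every chromosome is attached, held the member with the largest difference. Mad2l1, the Mad2 protein that binds Cdc20 (chr6:66535221-66541107), stood at 157, 118 and 169 CPM in siChst7 and at 79.7, 80.1 and 81.7 in siControl. All siChst7 libraries of day 3 lay above all other libraries of the study (log2FC 0.88 ± 0.08, edgeR adjusted p = 6.5e-08). Bub1, a checkpoint kinase, stood at 109, 85.4 and 109 CPM against 67.4, 63.8 and 67 (0.61 ± 0.07, adjusted p = 9.8e-07). The kinase Ttk was higher by 0.23, a call lost without the siChst7 replicate 3. Bub1b stood at 70.3, 70.6 and 64.7 CPM against 66.6, 64.5 and 63.9 and was not called (0.08 ± 0.04).

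Partners of the anaphase-promoting complex also went both ways. Pttg1, the securin that this complex destroys to free separase (chr11:43420244-43427463), stood at 92.7, 70.2 and 105 CPM in siChst7 and at 55.7, 57 and 53 in siControl (log2FC 0.69 ± 0.09, edgeR adjusted p = 3e-06). Cdc20, its activator, stood at 82.3, 94.8 and 81.9 CPM against 94.1, 92.7 and 99.2 (-0.14 ± 0.05, adjusted p = 0.037), with replicate 2 inside the siControl range. The call of Cdc20 was lost without the siControl replicate 1 or 3 or the siChst7 replicate 1 or 3. Ube2c stood at 119, 118 and 128 CPM against 111, 106 and 110 (0.16 ± 0.04, adjusted p = 0.0014). Its call was lost without the siChst7 replicate 3 and turned to -0.15 with a correction for gene length, at 931 bases the shortest member.

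Of the 5 centromere and kinetochore genes, 3 were higher. Nuf2, a subunit of the Ndc80 complex that grips microtubules (chr1:169497934-169531464), stood at 116, 76.3 and 124 CPM in siChst7 and at 72.4, 65.3 and 67 in siControl (log2FC 0.62 ± 0.10, edgeR adjusted p = 5.7e-05). Ndc80 itself was higher by 0.36. Cenpa, the histone H3 variant of centromeres, was higher by 0.13, a call that held in 2 of 20 settings. Cenpf and Cenpe, a kinesin of kinetochores, had values of -0.00 and 0.02 and were not called. Among 5 spindle motors and assembly factors, Hmmr (0.37) and Nusap1 (0.33), both of which bind spindle microtubules, were higher. Kif11, Kif2c and Tpx2 lay between -0.00 and 0.04. Of the cytokinesis genes, Ect2 (0.25) and Anln (0.16) were higher, and Kif20a, Kif23 and Prc1 were not called. The call of Anln was lost without the siChst7 replicate 3.

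The time course within siChst7 shares its day 3 libraries with the comparison above. From day 0 to day 1, 31 members were lower and 3 higher (30.5% and 29.5% of all tested genes), with a median log2FC of -0.31 and no overlap for 36 members (66.3% of all tested genes). The 3 higher ones were Kif23 (0.20), Ect2 (0.19) and Anln (0.17). From day 1 to day 3, 26 were lower and 6 higher (33.5% and 31.7%), with a median of -0.40 and no overlap for 29 (64.5%). The 6 were Pttg1 (0.66), Mad2l1 (0.57), Cdk1 (0.36), Nusap1 (0.26), Ccnb1 (0.20) and Hmmr (0.16). Under every alternative, Pttg1, Mad2l1 and Cdk1 were called higher. The call of Ccnb1 was lost without the replicate 1 or 3 of day 1 or of day 3, and that of Hmmr without any day 1 replicate or the replicate 1 or 3 of day 3. These 3 were also the members whose day 3 mean in siChst7 lay above their own day 0 mean, at 130%, 166% and 122% of it. The lowest member was Cdc25b, at 27.5%, and the median was 63.1%.

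Whether the change per step differed between the arms was tested by an interaction term. From day 1 to day 3 the change was more positive in siChst7 for 17 members and more negative for 0, where 15.3% and 13.1% of all tested genes were called (edgeR; 0 members were more negative at an unadjusted p below 0.05, and 0 by DESeq2). The 17 became 14 without the siChst7 day 3 replicate 1, 20 without replicate 2, 13 without replicate 3 and 15 without both the siChst7 day 3 replicate 1 and day 0 replicate 3. The values for Pttg1 and Mad2l1 were 0.84 ± 0.13 and 0.80 ± 0.11 (adjusted p = 9.2e-05 and 6.4e-05). They were 0.70 for Birc5, 0.65 for Nuf2, 0.62 for Bub1, 0.53 for Cdk1 and 0.49 for Nusap1. From day 0 to day 1 the change was more positive for 3 members and more negative for 0 (6.2% and 5.5%; 1 more negative at an unadjusted p below 0.05, and 0 by DESeq2). These 3 were Anln (0.28), Mybl2 (0.22) and Tpx2 (0.17), all lower in siChst7 at day 0.

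The size of the day 3 difference moved with the GC content of the transcripts. Of the 19 members with the lower GC content (40.2% for Ect2 to 46.6% for Mki67), 12 were called higher and 0 lower, with a median log2FC of 0.25. Of the 19 with the higher GC content (47.3% for Cenpa to 56.3% for Mybl2), 7 were called higher and 3 lower, with a median of 0.04. Of all tested genes, 23.1% were called higher and 21.6% lower. Over the 38 members, Spearman's rho between GC content and the deviation of a siChst7 day 3 library from the siControl mean was -0.67, -0.17 and -0.55 for replicates 1, 2 and 3, as a description of genes that share a library. Over all tested genes it was -0.36, -0.12 and -0.32. With gene length in place of GC content, rho was -0.21, -0.27 and -0.34 over the members. Over all tested genes, rho with gene length was -0.32, -0.26 and -0.34, so that replicate 2 also had a trend. With a correction for GC content 18 members were called higher and 3 lower, 16 of the 18 and 0 of the 3 being among those called without it, with log2FC of 0.64 for Mad2l1, 0.64 for Pttg1, 0.64 for Birc5, 0.46 for Nuf2 and 0.55 for Cdk1. Under it Ect2 went to 0.00, and Ttk (0.10), Cenpa (0.12), Plk1 (-0.04), Incenp (-0.10) and Cdc20 (-0.06) lost their calls. Called under it alone were Cdc25b (0.17) and Bub1b (0.13) as higher and Mki67 (-0.14), Cenpf (-0.12) and Kif11 (-0.14) as lower. With length corrected as well, 24 members were higher and 1 lower. The shares of all tested genes called under these corrections are not given here. The members called higher in each of the 20 settings were Ccna2, Ccnb1, Ccnb2, Cdk1, Birc5, Bub1, Mad2l1, Pttg1, Ndc80, Nuf2, Hmmr and Nusap1. None of the 3 lower calls held in every setting. The part of the Rn45s share, of the cardiomyocyte markers and of the delivered factors, whose counts were lower in siChst7 at day 3 (Mef2c -0.37, Gata4 -0.36, Tbx5 -0.33), was not tested.

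**Figure D4:**
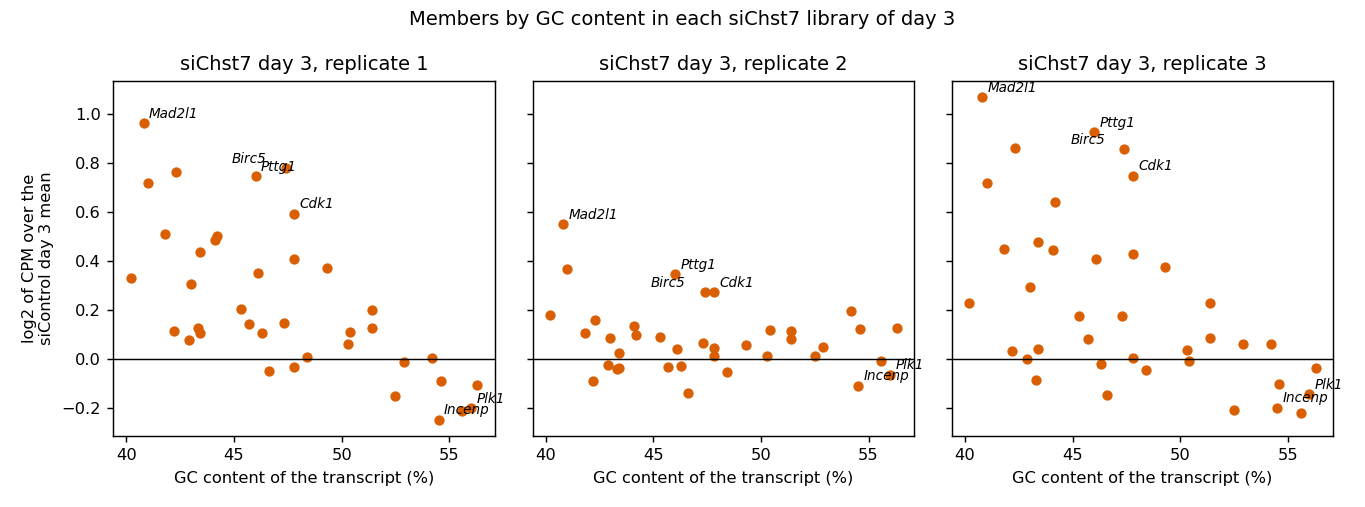
Log2 of the CPM in each siChst7 library of day 3 over the siControl day 3 mean (vertical axis) against the GC content of the transcript in percent (horizontal axis), 1 point per member and 1 panel per replicate. Points of low GC content tend to lie higher than those of high GC content in replicates 1 and 3. Kif11, Cenpe, Cenpf, Top2a and Mki67, of the lower GC content, lie near 0 there, and Birc5 (47.4% GC) lies high. The slope is shallow in replicate 2, where Mad2l1 is still the highest point.

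The members were also read by the CHR letters in their promoters. From day 1 to day 3 in siControl, 22 of the 23 members with a match fell (median log2FC -0.56). So did 7 of the 8 with a window and no match (-0.34), and 32.3% of all tested genes. For siChst7 against siControl at day 3, 11 of the 23 with a match were higher and 2 lower (median 0.10). Of the 8 without, 6 were higher and 0 lower (median 0.53). Of all tested genes, 23.1% were higher and 21.6% lower. The 6 were Ccnb1, Birc5, Mad2l1, Pttg1, Nuf2 and Nusap1. All of these but Birc5 (47.4% GC), and also Cenpe, were among the members with the lower GC content. The splits by CHR letters and by GC content thus overlap, and the part of each was not tested. The split by CHR letters was made with the values in view, and no test of it was run.

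The other genes of the pathway show how far the pattern reached, in the fit without correction for GC content or gene length. Of 65 other mitosis genes, 47 fell and 4 rose from day 0 to day 1 in siControl (median log2FC -0.29). Of all tested genes, 30.8% fell and 29.5% rose on this step. From day 1 to day 3, 53 of the 65 fell and 4 rose (-0.41), where 32.3% of all tested genes fell and 22.8% rose. At day 3, 35 of the 65 were higher and 3 lower in siChst7 (median 0.18), where 23.1% of all tested genes were higher and 21.6% lower. Without one of the siChst7 day 3 libraries 29 to 36 were higher and 3 to 4 lower. The condensin subunit Smc4 (0.26) and the kinetochore protein Zwint (0.65) were higher, and Ckap5, a microtubule polymerase, was not called (-0.04). The 3 lower ones were Gtse1 (-0.11, a call lost without replicate 1 or 3), Racgap1 (-0.19), the partner of Kif23 in centralspindlin, and Stmn1 (-0.21), which destabilises microtubules. CHR letters were in 65.4% of the 52 of these genes with a promoter window.

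Of 44 DNA replication genes, 14 rose and 12 fell from day 0 to day 1 in siControl (median 0.03), shares near the 29.5% and 30.8% of all tested genes. From day 1 to day 3, 3 rose and 22 fell (-0.15), where 22.8% of all tested genes rose and 32.3% fell. In siChst7 at day 3, 21 were higher and 8 lower (median 0.12, where 23.1% of all tested genes were higher and 21.6% lower). Without the siChst7 replicate 1 the counts were 19 and 4, without replicate 2 they were 24 and 12, and without replicate 3 they were 17 and 7. Pcna, the sliding clamp of the polymerases, had 0.56 and Rrm1, a ribonucleotide reductase subunit, 0.12 (lost without replicate 1 or 3), while Mcm7 of the replicative helicase was not called (-0.03). Of 18 DREAM, MuvB and E2F regulators, 9 rose and 6 fell on the first step in siControl, against 29.5% and 30.8% of all tested genes. On the second step 3 rose and 9 fell, against 22.8% and 32.3%. At day 3, 3 of the 18 were higher and 2 lower in siChst7, below the 23.1% and 21.6% of all tested genes. At day 3, E2f5 (0.51), the MuvB subunit Lin9 (0.42) and Tfdp1, a partner of E2F (0.15, lost without replicate 3), were higher in siChst7, and Rbl2, a pocket protein of DREAM (-0.23), and Tfdp2 (-0.14) were lower. Of 18 subunits and other partners of the anaphase-promoting complex, 10 were higher and 5 lower at day 3, against 23.1% and 21.6% of all tested genes. The 5 lower were Anapc1, Anapc2, Anapc5, Anapc7 and the activator Fzr1 (-0.19 to -0.12). Without the siChst7 replicate 1, 7 were higher and 4 lower, Fzr1 losing its call, and without replicate 3, 5 were higher and 5 lower.

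Of the 6 G1 cyclins and kinases, 2 fell and 1 rose on the first step in siControl, against 30.8% and 29.5% of all tested genes. Ccnd1 and Ccnd2, D-type cyclins, fell (-1.94 and -0.95), Cdk6 rose (0.26), and Cdk4 was not called (-0.06). Of the 6 CDK inhibitors tested, 3 rose and 1 fell on the first step, against 29.5% and 30.8% of all tested genes. On the second 2 rose and 2 fell, against 22.8% and 32.3% of all tested genes. Cdkn1a, the p21 inhibitor of cyclin-dependent kinases, rose on both steps (0.98 ± 0.05 and 1.04 ± 0.05, edgeR adjusted p = 2.2e-13 and 2.5e-13), and Cdkn2a and Cdkn2b rose on the first (0.97 and 1.42). Cdkn1b fell on the first step (-0.19) and rose on the second (0.43), on which Cdkn2c (-0.37) and Cdkn2d (-0.24) fell. In siChst7 at day 3, Ccnd1 (-0.27), Ccnd2 (-0.29), Ccnd3 (-0.18) and Cdkn1a (-0.16) were lower than in siControl, the call of Cdkn1a being lost without the siChst7 replicate 1. Of 9 cohesin genes, 2 were higher (Stag1 0.13, Stag2 0.18) and 2 lower (Smc3 -0.20, Pds5b -0.13), shares near the 23.1% and 21.6% of all tested genes. The calls of Stag1 and Stag2 were lost without the siChst7 replicate 1 or 3, and that of Pds5b without replicate 2.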

How the data were processed

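The authors deposited raw read counts, as whole numbers for each gene, from 18 poly-A libraries. Per the submitters' processing notes, they used HISAT2, Subread, featureCounts, DESeq2 and the build mm10. The sources used here give no versions, no strand setting and no rule for reads that map to several places, so that counts of members with near-identical copies or overlapping genes are uncertain. The members and lists, and the splits by GC content and promoter letters, were chosen with earlier results of these data known.

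Testing used edgeR 4.0.16 (R 4.3.3) with filterByExpr, TMM scaling and 1 quasi-likelihood fit of 6 groups with no covariate, which had 12 residual degrees of freedom. Adjustment was by Benjamini-Hochberg over 13802 genes, two-sided, with calls below 0.05. The common dispersion was 0.00331. The SE was worked back from the F statistic and the log2FC. CPM used TMM-scaled totals. GC content was that of the GENCODE transcript nearest in length to the deposited gene length, and was found for all 38 members and 92.2% of the tested genes. Scripts were tested on simulated counts. Where replicates did not come from separate cultures, p-values measure technical spread.

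The alternatives were DESeq2 1.42.0, other scalings and filters, a replicate block, offsets for length and GC content, the compared libraries alone, and leaving out libraries. The GC offsets, the removal of 2 libraries together and the counts of other gene lists without single libraries were chosen after seeing the data. Genes named by rule were, per comparison, the most abundant member of each role, the 4 largest changes each way among called members, and members called against the majority where 5 or fewer. In other lists they were the most abundant called and uncalled genes. Other members and genes were named after their values were seen.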

Additional observations from a re-analysis of the deposited data

Results flagged for a closer look

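For 9 member and step combinations the change differed between the arms in a test of the difference itself (edgeR interaction term, siChst7 minus siControl) among the genes named by rule. From day 0 to day 1 these were Anln at 0.28, Mybl2 at 0.22 and Tpx2 at 0.17. From day 1 to day 3 they were Pttg1 at 0.84, Mad2l1 at 0.80, Birc5 at 0.70, Nuf2 at 0.65, Cdk1 at 0.53 and Anln at 0.19. The values of Mybl2 and Tpx2 on the first step lost their calls in 15 and 9 of 26 settings, and that of Anln on the second step in 5.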

How the results depend on the processing

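Under each of 20 settings, 31 of 35 calls from day 0 to day 1 and 32 of 36 from day 1 to day 3 held in siControl. Of the 22 calls between arms at day 3, 12 held, of 9 at day 0, 4 did, and of 2 at day 1, 1 did. Of the 17 and 3 interaction calls, 12 and 1 held in 26 settings. For members not called, small differences were not detectable with 3 libraries per group. The causes of the changes below were not tested. Counts of members under the alternatives, here and above, are mostly given without the shares of all tested genes, which can also change with the setting.

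For siChst7 against siControl at day 0, library totals in place of TMM gave 3 members lower. At day 1, the members called higher were 1 with the length offset, 1 with the replicate block and length offset, 1 with the GC offset, 2 with GC and length offsets, 2 with these and the replicate block, and 2 in a fit of the compared libraries alone. Those called lower at day 1 were 1 without a filter, 1 with the replicate block, 1 with the length offset, 1 with both, 4 with the GC offset, 4 with GC and length offsets, 4 with these and the replicate block, and 10 in a fit of the compared libraries alone. At day 3 the members called lower were 5 each with DESeq2 size factors, library totals, no filter, a stricter filter and the DESeq2 test, and 1 each with GC and length offsets, with these and the replicate block, and in the compared libraries alone.

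For siControl day 1 against day 0, the members called higher were 1 each with upper quartile scaling, no filter, the replicate block and the GC offset. For siChst7 day 3 against day 1, they were 3 without the siChst7 day 3 replicate 1 and the siChst7 day 0 replicate 3. For the day 0 to day 1 interaction, 1 member was called higher each with DESeq2 size factors, library totals, upper quartile scaling and no filter. Members called lower there were 1 with library totals, 1 with GC and length offsets, 2 with these and the replicate block, and 2 in the compared libraries alone. For the day 1 to day 3 interaction, 1 was called lower each with the length offset and with GC and length offsets, each with and without the replicate block.

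Leaving out 1 of the compared libraries at a time gave 1 to 3 members higher at day 0, 1 lower at day 1, 1 to 4 lower at day 3, 1 higher for siControl day 1 against day 0 and 1 to 3 higher for the day 0 to day 1 interaction.

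Directions at day 3 turned as follows, with and without the replicate block. Foxm1 went to 0.19 with GC and length offsets. Ube2c went to -0.15 with the length offset and -0.13 with both. Cenpf went to 0.12 with the length offset. Tpx2 went to 0.10 with the length offset and 0.12 with both. In the day 1 to day 3 interaction Ube2c went to -0.20 and -0.18.

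The deviations of same-numbered libraries from their group means had an r from -0.07 to 0.07 over 45 pairs. Of the 18 libraries, 10 correlated best with a library of their own number in another group. These values cannot exclude a batch shared by a number, and the labels do not say whether a number marks one. With the replicate block, 18 members were higher and 2 lower between arms at day 3, 33 lower for siControl day 1 against day 0 and 36 lower for day 3 against day 1.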
